A study of Mus musculus with 3 samples.

Results

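The genes described here form the amino acid arm of the integrated stress response, the program that the transcription factor ATF4 runs. They are 34 genes given as a list of symbols, with no measured value in the rule, and all of their probes were taken from the scanner files by matching the RefSeq accession of each probe to a gene symbol, which gave 42 probes among the 27235 named probes (20660 genes) of 55681. NIH3T3 cells, a line of mouse embryonic fibroblasts labelled WT, were grown to confluency and then kept for 24 h in medium with 20 μM AR7, in medium with 20 μM BMS614 or untreated (None). AR7 is an activator of chaperone-mediated autophagy (CMA) directed at retinoic acid receptor alpha (RARα), and BMS614 is a selective RARα antagonist. The compounds were dissolved in DMSO. The labels call the None cells untreated and do not say whether they received DMSO, so an effect of the solvent and of a compound cannot be told apart in the comparisons with None.

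Each condition has 1 one-colour Agilent array, so the differences given here were not checked in replicates, and no test between conditions was possible. The number of arrays limits the precision. The scanner software marked 34105 probes as well above background on the AR7 array, 34425 on the BMS614 array and 30847 on the None array, and all 3 arrays lie on one slide. Of the fibroblast markers Col1a1, Col1a2, Col3a1, Vim, Fn1, Thy1, Pdgfrb and S100a4, 8 of 8 were well above background on all 3 arrays, while Epcam, Krt18, Alb, Gfap and Tubb3, markers of other cell types, were so on none. Of the other markers of other cell types, Kdr, Pecam1, Krt8, Cdh1, Adgre1 and Rbfox3 were well above background on all 3 arrays, Ptprc on 2 and Cdh5 on 1. By the rule for a changed gene used for the program, the dim probe of Krt8 was lower than on the None array, at a log2 difference of -0.45 with AR7 (SD of repeated spots 0.19) and -0.77 with BMS614 (SD 0.18), and that of Rbfox3 differed by -0.82 between AR7 and BMS614 (SD 0.39). The part of other cells in the results was not tested.

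When amino acids run short, uncharged tRNAs activate the kinase GCN2, which phosphorylates the translation factor eIF2. Stress in the endoplasmic reticulum, lack of haem and double-stranded RNA act through the sister kinases PERK, HRI and PKR. General translation then falls while the Atf4 mRNA is translated more, and ATF4 switches on genes for amino acid synthesis and uptake, tRNA charging and, in the end, its own feedback. Much of this control acts on translation, which arrays do not measure, while the target genes are read as mRNA.

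ATF4 pairs with C/EBP proteins on the C/EBP-ATF response element (CARE), whose core is TGATGNAA. The RefSeq promoter windows (GRCm38.p6, 250 bases before to 50 bases after each gene's start) cover 28 of the 34 genes. The core or its reverse complement TTNCATCA lay in the windows of 9 of these 28 genes (32.1%), against 4.51% of the 27025 genes in the table. A match describes the letters and shows no binding. The matches in the 6 genes that could also be measured on every array are printed below. They are on the strand of the gene, with the core in capitals.
Asns: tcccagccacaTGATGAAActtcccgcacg
Chac1: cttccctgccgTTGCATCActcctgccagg
Nupr1: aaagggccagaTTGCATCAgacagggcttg
Pck2: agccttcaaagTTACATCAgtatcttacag
Slc1a4: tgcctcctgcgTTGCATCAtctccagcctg
Trib3: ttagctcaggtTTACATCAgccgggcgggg
These stretches lie at chr6:7693214-7693243 (minus strand) for Asns, chr2:119351038-119351067 (plus) for Chac1, chr7:126625562-126625591 (minus) for Nupr1, chr14:55540152-55540181 (plus) for Pck2, chr11:20332699-20332728 (minus) for Slc1a4 and chr2:152344028-152344057 (minus) for Trib3. The core of Asns, a gene in which this element was characterized early, lies 23 to 16 bases before the start. The match in Trib3 lies after the start, and that in Slc1a4 spans it. The other genes with a match were Atf3, Fgf21 and Vldlr.

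The program was expressed in the untreated fibroblasts and changed little with either compound. Of the 34 genes, 30 were well above background on the 3 arrays and Gdf15 was so on 2, whereas Atf3, Vldlr and Fgf21 were too dim on every array to be marked so. With AR7, none of the 31 genes that could be compared with None changed. With BMS614, Ddit4 alone rose, by 0.53 on the log2 scale (1.45-fold). A gene was counted as changed if its probe with the highest mean signal differed by at least 0.32 on the log2 scale and by more than 2 SD of the difference between repeated spots at that signal. By this rule 4.32% of 15002 named genes changed between AR7 and None, 6.38% of 15063 between BMS614 and None (3.09% higher), and 5.14% of 15317 between AR7 and BMS614 (2.55% lower). Among the 10178 genes at least as bright as Pck2, the dimmest gene of the program measured on every array (7.92), the shares were 1.69%, 2.58% (1.4% higher) and 2.35% (1.13% lower), so that counts of 0, 1 and 1 gene are near these backgrounds. At 1.5-fold the shares of all named genes were 2.16%, 3.24% and 2.79%, at 2-fold they were 1.01%, 1.03% and 1.01%, and without the minimum of 2 SD they were 11.3%, 12.3% and 13%. At 1.5-fold Ddit4 was counted between the compounds and not against None, and at 2-fold none of the genes was. The SD of repeated spots ran from 0.04 to 0.10 for the 30 genes in both comparisons with None, and 2 SD was below the 0.32 limit for 30 of 30. A change of that size would thus have stood clear of the error of spots, which does not hold the variation between cultures. In RNA of a whole culture, fewer cells with a transcript and less of it per cell cannot be told apart.

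**Figure D1:**
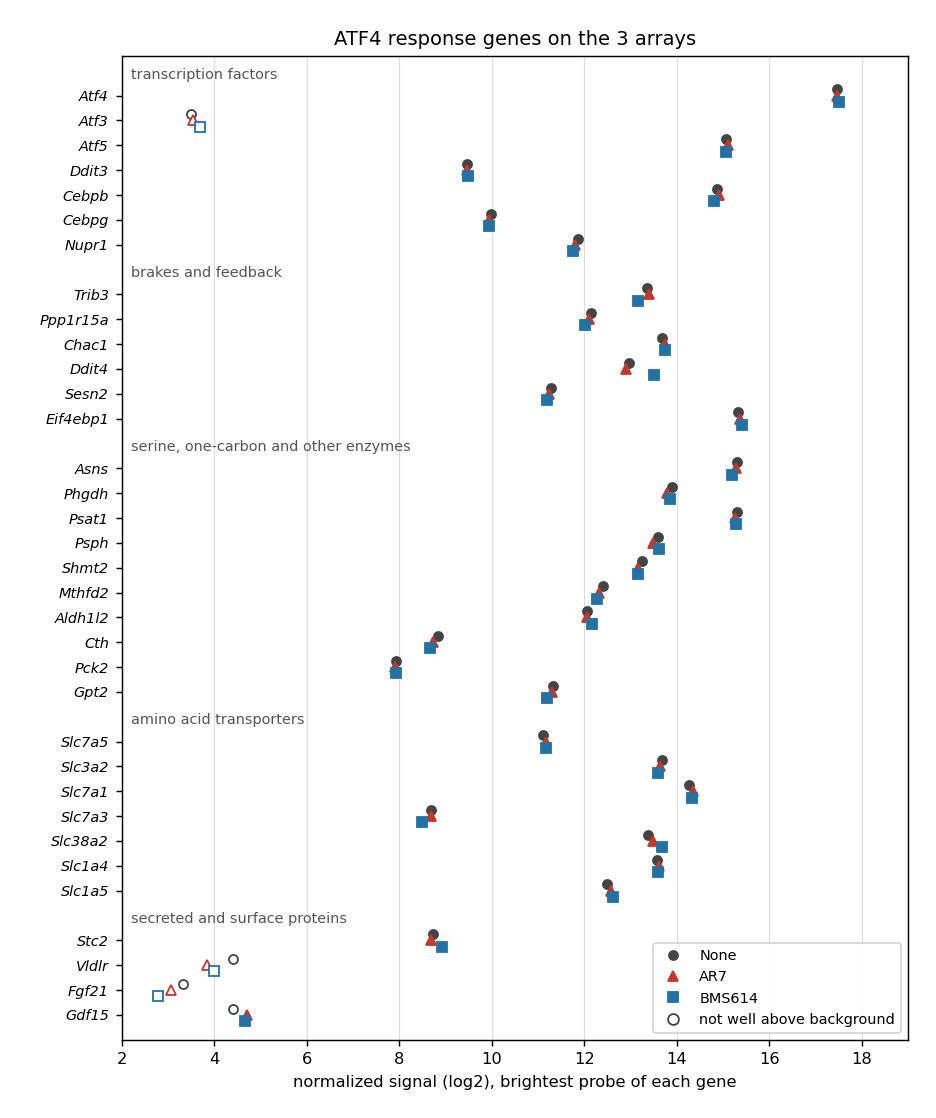
Normalized signal (log2, x axis) of the 34 genes of the ATF4 program on the None, AR7 and BMS614 arrays, 1 symbol per array, grouped by role; open symbols were not well above background. The filled symbols of a gene lie close together, with the widest gap at Ddit4, where BMS614 stands to the right, and signals are to be compared within a gene only.

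Over the 30 genes, the median difference between AR7 and None was -0.01 on the log2 scale, with 13 genes above 0 and 17 below, beside -0.01 over 13842 named genes. All 30 genes lay within 1.1-fold of None with AR7, from -0.12 (Psph) to 0.13 (Slc38a2), against 81.4% of the 10178 brighter genes. With the scanner's processed signal divided by its 75th percentile on each array, 28 of the 30 genes were within 1.1-fold, and 29 were in the deposited table. Between BMS614 and None the median was -0.01, with 15 genes above 0 and 15 below, and 24 of 30 genes lay within 1.1-fold, against 75.5% (19 of 30 with that scaling). The median absolute difference of the genes was 0.04 with AR7 and 0.09 with BMS614, beside 0.06 and 0.08 in the brighter genes. More of the genes passed 2 SD of repeated spots with BMS614, 12 of 30 against 29.6% of the brighter genes, than with AR7, where 2 of 30 did against 21.2%. Both comparisons share the None array.

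**Figure D2:**
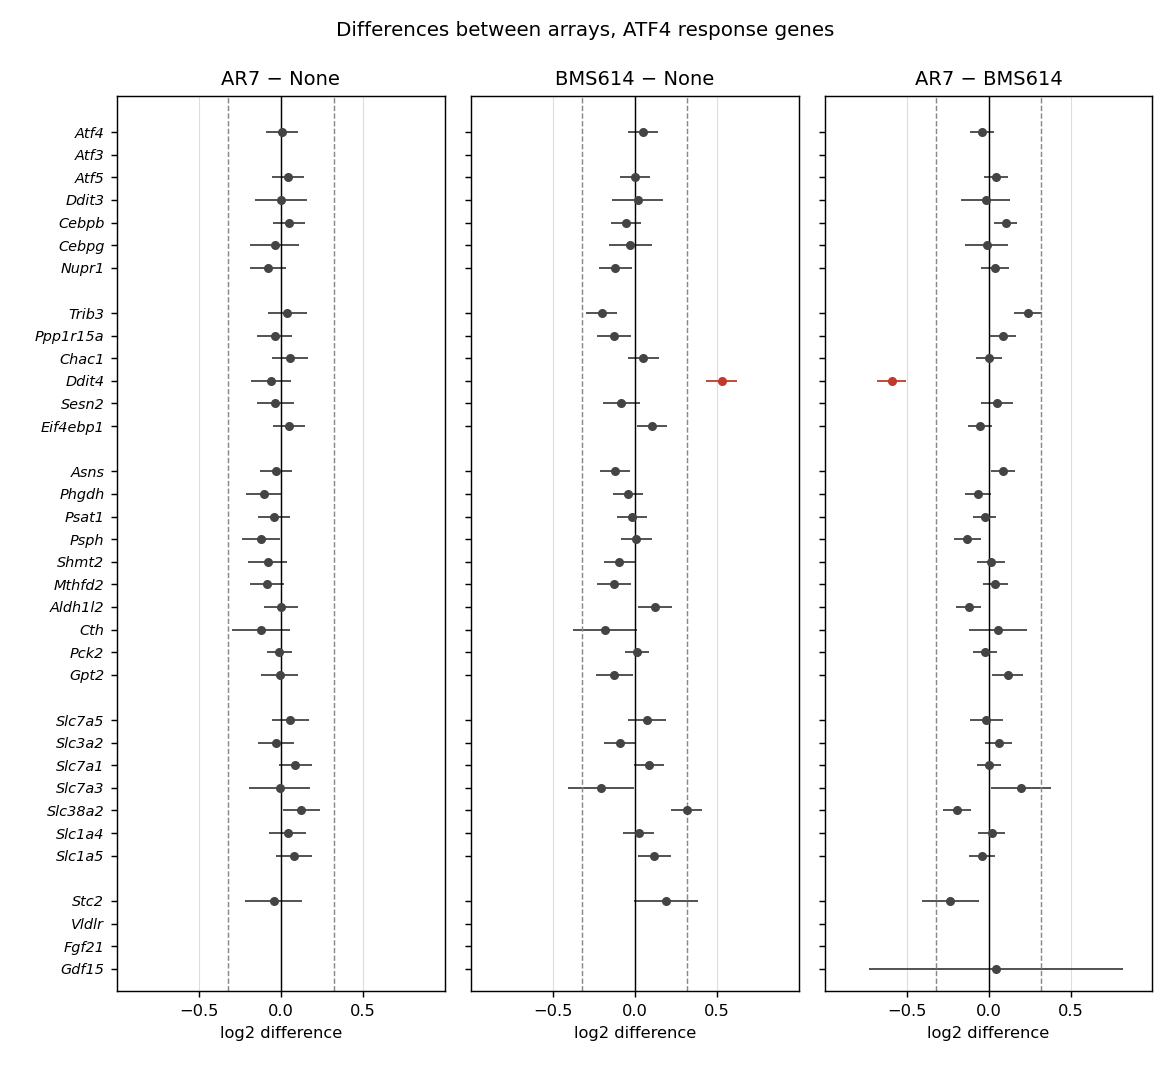
Log2 difference between arrays (x axis) for each gene measured on both, with bars of 2 SD of the difference between repeated spots; dashed lines mark the limit of 0.32 and red points the genes that changed. With AR7 all 30 points lie inside the dashed lines, and Ddit4 lies outside them in both panels with BMS614.

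None of the 6 transcription factors that could be compared changed. Atf4, its central activator, had a log2 signal of 17.46 on the None array, 17.47 with AR7 and 17.51 with BMS614, and differences of 0.01 and 0.05 against an SD of 0.05 between repeated spots. Its second, dimmer probe read 11.48, 11.40 and 11.37, and on both probes the 3 arrays lay within 0.11 of each other. This probe was at -0.08 with AR7 and -0.11 with BMS614, the latter past 2 SD of repeated spots (SD 0.05). The 2 probes thus disagree in direction with both compounds. Atf4 mRNA levels do not report how much of it was translated. Atf5, a related factor under similar translational control, read 15.06, 15.11 and 15.06. Ddit3, which encodes CHOP, the factor tied to cell death after lasting stress, read 9.46, 9.46 and 9.48. The dimerization partners Cebpb and Cebpg differed from None by 0.05 and -0.04 with AR7 and by -0.05 and -0.03 with BMS614. Nupr1, a stress-induced chromatin protein, differed by -0.08 and -0.12, the latter past 2 SD of repeated spots. Atf3, a factor that ATF4 induces early, did not stand well above background, at 3.49, 3.54 and 3.69, and the signal of such a probe has no order.

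Among the feedback genes and inhibitors of growth signals, Ddit4 stood apart. It encodes REDD1, an inhibitor of mTORC1 that ATF4 and several other stress pathways induce. Its log2 signal was 12.97 on the None array, 12.91 with AR7 and 13.50 with BMS614. The BMS614 array was high, and the None and AR7 arrays were close to each other, at a difference of -0.06 (SD 0.06 between repeated spots). The rise with BMS614 was 11.1 times the SD of 0.05 between repeated spots, and 20 of the 10178 brighter genes had a higher difference. Set directly against BMS614, the AR7 array was lower by 0.59 (1.51-fold), and 13 of these genes were lower still. The rise with BMS614 ran from 0.51 to 0.53 over 7 alternative ways of processing and the difference between the compounds from -0.61 to -0.59. Of these ways, keeping outlier spots, averaging over probes and asking for signal well above background on all 3 arrays could not alter the values. One probe with 1 spot on each array carries these values, and both differences rest on the same BMS614 spot.

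Sesn2, another stress-induced inhibitor of mTORC1, did not share this pattern, at 11.28 without additions, 11.24 with AR7 and 11.19 with BMS614. Eif4ebp1, the translation inhibitor 4E-BP1, differed from None by 0.05 with AR7 and 0.11 with BMS614. Trib3, a pseudokinase that binds ATF4 and damps its activity, read 13.36, 13.40 and 13.16. The BMS614 array was the low one, at -0.20 against None (SD 0.05) and 0.24 below AR7 (SD 0.04), past 2 SD of repeated spots but short of 0.32. Ppp1r15a, the phosphatase subunit GADD34 that restores eIF2, differed by -0.04 with AR7 and -0.13 with BMS614. Chac1, which breaks down glutathione and is among the most responsive ATF4 targets, read 13.69, 13.74 and 13.74, with 0.05 for each compound and 0.00 between them.

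None of the 10 enzymes changed. With AR7, 9 were below None and with BMS614 7 were, beside 5174 and 5057 of the 10178 brighter genes. Both counts share the None array. The medians of -0.06 and -0.07 stayed below 0 under 7 alternatives. Of these, keeping outlier spots and asking for signal on all 3 arrays could not alter them. Asns, asparagine synthetase and the classical amino acid response gene, read 15.31 without additions, 15.28 with AR7 and 15.19 with BMS614, at -0.03 and -0.12. The serine pathway enzymes Phgdh, Psat1 and Psph differed from None by -0.10, -0.04 and -0.12 with AR7 and by -0.04, -0.02 and 0.01 with BMS614. The second probes of these 3 genes differed by -0.14, -0.17 and -0.14 with AR7 and by -0.23, -0.15 and -0.05 with BMS614, in the same direction with AR7. The mitochondrial folate enzymes Shmt2 and Mthfd2 were at -0.08 and -0.08 with AR7 and -0.09 and -0.13 with BMS614, whereas Aldh1l2, of the same folate pathway, was at 0.00 and 0.12.

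Pck2, the mitochondrial PEP carboxykinase, is printed 10 times on each array. Its log2 signal was 7.92 ± 0.16 without additions, 7.91 ± 0.13 with AR7 and 7.93 ± 0.09 with BMS614 (SD over 10 spots of 1 array), and its spots overlap between all 3 arrays. Gpt2, mitochondrial alanine aminotransferase, read 11.32, 11.31 and 11.19. Cth, which makes cysteine by transsulfuration, was at -0.12 with AR7 and -0.18 with BMS614 on its brighter probe. Its second probe was at -0.06 and 0.19, so that the 2 probes disagree in direction with BMS614.

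None of the 7 transporters changed, and one lay just inside the limit. Slc38a2, the sodium-coupled neutral amino acid transporter SNAT2 that cells raise when amino acids are scarce, read 13.37 without additions, 13.50 with AR7 and 13.69 with BMS614. Its differences from None were 0.13 with AR7 (SD 0.06) and 0.32 with BMS614 (SD 0.05), and AR7 was 0.19 below BMS614. With BMS614 this is 0.318 against a limit of 0.322, and 144 of the 10178 brighter genes had a higher difference. It was 0.22 under the alternative that moved it most. The None array was lowest and the BMS614 array highest. The difference between AR7 and None, past 2 SD of repeated spots as given, was 0.01 with the processed signal divided by its 75th percentile and 0.06 in the deposited table, both short of 2 SD. For the cationic transporter Slc7a1 the differences were 0.09 and 0.08 and for the neutral transporter Slc1a4 they were 0.04 and 0.02. Slc7a5, the light chain of the large neutral transporter LAT1, differed by 0.06 and 0.07 on its brighter probe and by -0.04 and -0.17 on the other. Its heavy chain Slc3a2 differed by -0.03 and -0.09, the glutamine transporter Slc1a5 by 0.08 and 0.12 on its brighter probe and by -0.07 and 0.04 on the other, and the cationic transporter Slc7a3, on a dimmer probe, by -0.01 and -0.21.

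The secreted proteins were mostly dim. Stc2, stanniocalcin 2, read 8.74, 8.70 and 8.93, at -0.04 with AR7 and 0.19 with BMS614 against SDs of 0.09 and 0.10. Gdf15, a stress hormone, was well above background with AR7 (4.72) and BMS614 (4.67) and not so without additions (4.40). Against the None array it was at least 1.18-fold higher with AR7 and at least 1.15-fold higher with BMS614. Each bound sets the bright array against the dimmest probe that the software still marked on the None array, or against the Gdf15 probe itself if that was brighter. The SD of repeated spots was taken from the dimmest bin of repeated probes, with a median signal of 5.50, above that of Gdf15. It was 0.43 and 0.35, and neither bound exceeds it. The hormone gene Fgf21 and the lipoprotein receptor gene Vldlr stayed dim on the 3 arrays.

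Whether the genes with a CARE core in their promoter windows moved as a group was not tested. Over the 6 of them that were measured, the differences ran from -0.08 to 0.05 with AR7, with a median of 0.01, and from -0.20 to 0.05 with BMS614, with a median of -0.05. With BMS614, Asns (-0.12), Nupr1 (-0.12) and Trib3 (-0.20) were lower past 2 SD of repeated spots, and none of the 6 was higher in this sense. Of the brighter genes 29.6% passed 2 SD in either direction. None of these 6 genes changed in any of the 3 comparisons. The windows of Ddit4 and Slc38a2 hold no match to these letters.

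The rest of the pathway was read through lists set beside the 34 genes. Of 18 genes listed as eIF2 kinases and eIF2 machinery, among them those for eIF2 and its exchange factor, none changed in any comparison. Their medians were 0.01 with AR7 and 0.00 with BMS614, each turning below 0 under 3 of 7 alternatives. Eif2ak4, which encodes GCN2, had the highest value with AR7, at 0.25, against 0.09 with BMS614. Of 20 cytosolic tRNA synthetases, which ATF4 raises as a group, Yars alone changed, falling with BMS614 by 0.40, against a difference of -0.32 with AR7, on a dim probe with an SD of 0.16. The medians of the synthetases were -0.03 with AR7 and -0.04 with BMS614. Of 25 other genes listed as ATF4 targets that could be compared, none changed, with medians of -0.03 and -0.01. The lowest was Rhbdd1, on a dim probe, at -0.38 with AR7 (SD 0.29) and -0.39 with BMS614 (SD 0.25). Slc7a11, the cystine transporter shared by ATF4 and NRF2, was too dim on every array to be compared.

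Of 23 genes of the endoplasmic reticulum stress response, which shares the kinase PERK with this program, none changed. With AR7, 18 of the 23 were below None, beside 7159 of 13842 named genes, and the median over the list was -0.08. With BMS614, 13 were below None and 10 above, with a median of -0.01. The chaperone cofactor Sdf2l1 and the transcription factor Xbp1 were picked after their values were seen. They were at -0.31 and -0.20 with AR7 and at -0.20 and -0.10 with BMS614. The 12 NRF2 targets that could be compared, another stress program, were all above None with AR7, and 6 of them rose, with a median of 0.32 against 0.06 with BMS614. The 6 were Nqo1 (0.90), Gsta4 (0.63), Osgin1 (0.39), Gstm1 (0.37), Hmox1 (0.36) and Srxn1 (0.35), enzymes and regulators of the defence against oxidants. Their medians were above 0 under 7 alternatives. The lists were chosen with earlier results of these data known. No test of the difference between lists was made, and with 1 array per condition none of these medians has a replicate error.

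**Figure D3:**
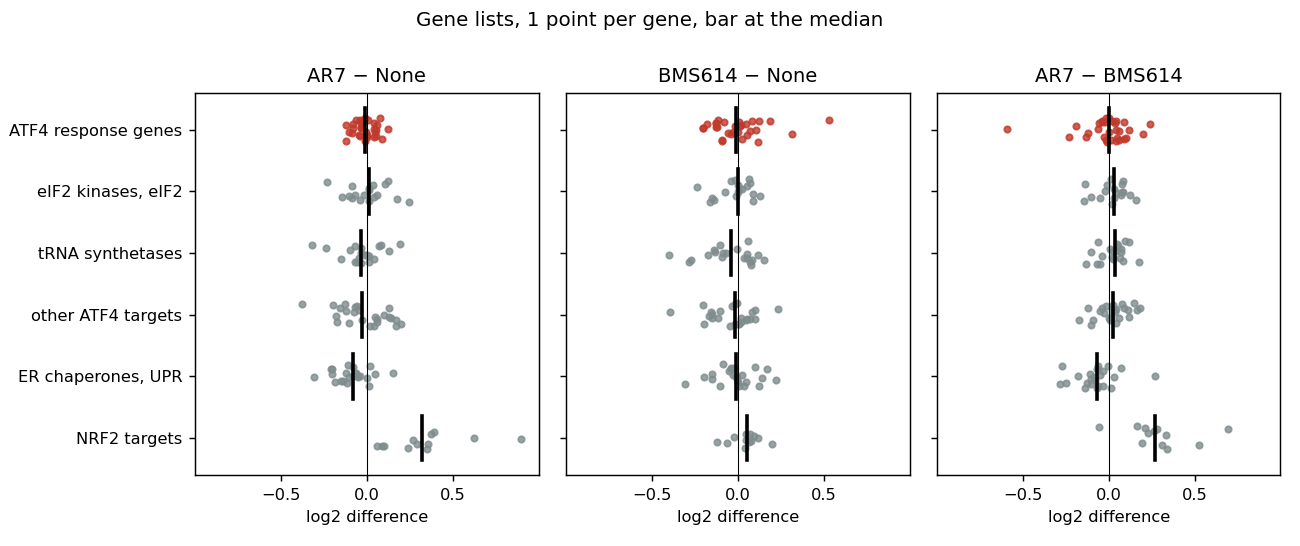
Log2 difference between arrays (x axis) for each gene of the ATF4 program and of the 5 lists set beside it, 1 point per gene and a black bar at the median. The ATF4 program is centred on 0 in all 3 panels, with Ddit4 at 0.53 with BMS614, whereas 12 of 12 NRF2 targets lie right of 0 for AR7 against None and 11 of 12 for AR7 against BMS614. Both counts share the AR7 array, and the lists were chosen with earlier results of these data known.

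At the same dose and time, AR7 and BMS614 could be set against each other directly for 31 genes. Their median difference, AR7 over BMS614, was 0.00 on the log2 scale, with 17 genes above 0 and 14 below, and Ddit4 alone passed 0.32. Past 2 SD of repeated spots were 11 genes, against 34.8% of the brighter genes. Higher with AR7 in this sense were Cebpb (0.10), Trib3 (0.24), Ppp1r15a (0.09), Asns (0.09), Gpt2 (0.12) and Slc7a3 (0.20). Lower with AR7 were Ddit4 (-0.59), Psph (-0.13), Aldh1l2 (-0.12), Slc38a2 (-0.19) and Stc2 (-0.23). Read probe by probe, 38 of the 42 probes could be compared between the compounds, and the Ddit4 probe was again the only one to change.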

How the data were processed

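Cy3-labelled RNA of NIH3T3 cells was hybridized by the authors to Agilent mouse arrays, 1 per condition. The authors deposited the spot intensity read by Feature Extraction 10.7.3.1, not normalized across arrays, and a table of processed values. Each column of that table is a linear function of one array's spot intensity after background subtraction (medians 70.7 for AR7, 67.5 for BMS614 and 65.0 for None). It served as an alternative, with values below 16 set to 16. How it was made is not given in the sources used here.

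After the study's methods, which name RMA with the oligo package, the median spot intensity was corrected with the RMA convolution background, quantile normalized over 3 arrays and taken to log2 (R 4.3.3, limma 3.58.1, Python 3.11.15, numpy 2.4.6, pandas 2.3.3, matplotlib 3.10.9). Controls and outlier spots were left out and spots of a probe averaged. Probes were named through RefSeq accessions of GRCm38.p6. The probe with the highest mean signal stood for a gene. No spot of a probe of the program was an outlier, and none of its 34 genes was saturated. Spot error came from 267 probes printed 10 times, in 10 bins of signal, as the SD of the difference between arrays. Probes dimmer than the median of the dimmest bin (5.50) or brighter than that of the brightest (14.39) took the SD of that bin. The procedure was tested on simulated data. The grouping followed the treatment in the labels. The genes named are all 34 members and, of the other lists, those changed, together with the markers and a few chosen after their values were seen (Eif2ak4, Rhbdd1, Sdf2l1, Xbp1 and Slc7a11). The members and lists were chosen with earlier results of these data known. There was no test, since each condition has 1 array.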

Additional observations from a re-analysis of the deposited data

How the results depend on the processing

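No paired analysis was possible because no condition has a second array. The number of changed genes was 0 for AR7 against None under all 10 alternatives. Of these, the limits of 1.5-fold and 2-fold, keeping outlier spots and asking for signal on all 3 arrays could not add a gene. The number was 1 for BMS614 against None, always Ddit4, except at 1.5-fold and 2-fold, where it was 0 and 0. For AR7 against BMS614 it was 1, again Ddit4, except at 2-fold, where it was 0. These exceptions follow from the thresholds. The median difference between BMS614 and None, -0.0077, became -0.071 when the scanner's processed signal was divided by its 75th percentile on each array, and the cause was not tested. Over 7 alternatives, the other medians ran from -0.047 to -0.0087 for AR7 against None and from -0.014 to 0.022 for AR7 against BMS614. The sign of the difference changed under at least 1 alternative for 10 of 31 genes with AR7 (Atf4, Atf5, Ddit3, Cebpb, Eif4ebp1, Shmt2, Aldh1l2, Pck2, Gpt2 and Slc1a4), 6 with BMS614 (Atf4, Atf5, Psph, Cth, Slc7a5 and Slc1a4) and 10 between the compounds, so that the signs of such small values carry no direction. The comparison with brighter genes was chosen after seeing the data. Signal over background limits Gdf15, Atf3, Fgf21 and Vldlr.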
